A study of Rattus norvegicus with 26 samples.

Results

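The insulin receptor (Insr), the insulin receptor substrates Irs1 and Irs2 and the forkhead factors Foxo1 and Foxo3 were followed in adipose tissue and liver of rats whose feed was cut step by step. They were taken as the probe sets annotated to 1 of these 5 gene symbols alone, which gave 10 of the 31042 probe sets and 5 of the 14217 genes on the array. Insr was read by 2 probe sets, Irs1 and Irs2 by 1 each, and Foxo1 and Foxo3 by 3 each. Irs2 was higher in the restricted rats in adipose tissue at day 4 and in liver at day 4 and day 10. Irs1 was lower in liver at day 10, and the other 3 genes were not called. Each call except that of Irs2 in liver at day 10 was lost when certain single arrays were left out.

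Insulin binds its receptor, a tyrosine kinase, which phosphorylates the substrate proteins IRS1 and IRS2. These recruit phosphoinositide 3-kinase, whose lipid product brings AKT to the membrane, and AKT then phosphorylates FOXO factors, which leave the nucleus and stop activating their target genes. When insulin falls, as in fasting, FOXO factors return to the nucleus, where in liver they are known to act on genes of glucose output and on Irs2 itself. Insulin also induces the lipogenic factor SREBP-1c, which is known from mouse liver to repress Irs2.

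Each of the 26 arrays (an Affymetrix rat chip that reads each transcript by a set of short probes) held RNA of 1 rat, by the series design. The rats were inbred Long-Evans (Turku/AB) males, 11 to 15 weeks old when the experiments began, and all of them, controls included, were given 4 mL/kg of corn oil on day 0. The 4-day regimen supplied 18, 12, 9 and 6 g of pellets a day from day 0 to day 3, and inguinal white adipose tissue and liver were each profiled on day 4 in 4 restricted rats and 4 controls with no restriction. The 10-day regimen, in powdered feed, left day 0 unlimited, allowed 16, 14, 11 and 8 g a day over the next 4 days and then 6, 4, 4, 2 and 1 g up to day 9, and liver was profiled on day 10 in 5 restricted rats and 5 controls. A day's feed was put out in 1 portion while the lights were on. RNA was extracted with different kits from adipose tissue and liver. The labels do not tie an adipose array and a day 4 liver array to the same rat.

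Values are log2 expression values and changes are restricted minus control on that scale, with the standard error (SE) of the limma fit. A gene is called where its Benjamini-Hochberg adjusted p, taken over all 31042 probe sets, was below 0.05, and the words rise and fall are kept for called genes. The 3 sets of arrays were normalized separately by the submitters, so levels in different sets are set side by side only as a description. Array medians lay at 4.01 to 4.11 in adipose tissue, 3.16 to 3.25 in liver at day 4 and 3.23 to 3.32 at day 10, and the lowest correlation between any pair of arrays of a set was 0.983. Hepatocyte markers were all above background in liver (summed log2 level 17.8 to 18.0 on the arrays of both sets), and adipocyte markers were all above background in adipose tissue (17.3 to 17.6). In adipose tissue all 4 control arrays have a fluidics station record of 0 and all 4 restricted arrays one of 2, so station and diet cannot be told apart there. The 10 liver arrays of day 10 were scanned on 2 days (3 controls and 2 restricted rats, then 2 and 3), and the scan records of liver at day 4 were not used here.

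In adipose tissue 1 of the 10 probe sets was called, against 0.0548% of all probe sets, and 3 of the 10 had groups that did not overlap, against 6.09%. Liver at day 4 had 1 called against 5.58%, and 2 did not overlap against 10.9%. Liver at day 10 had 2 called against 11.2%, and 2 did not overlap against 11.4%. In bulk tissue a change in the share of a cell type and a change of RNA per cell cannot be told apart.

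**Figure D1:**
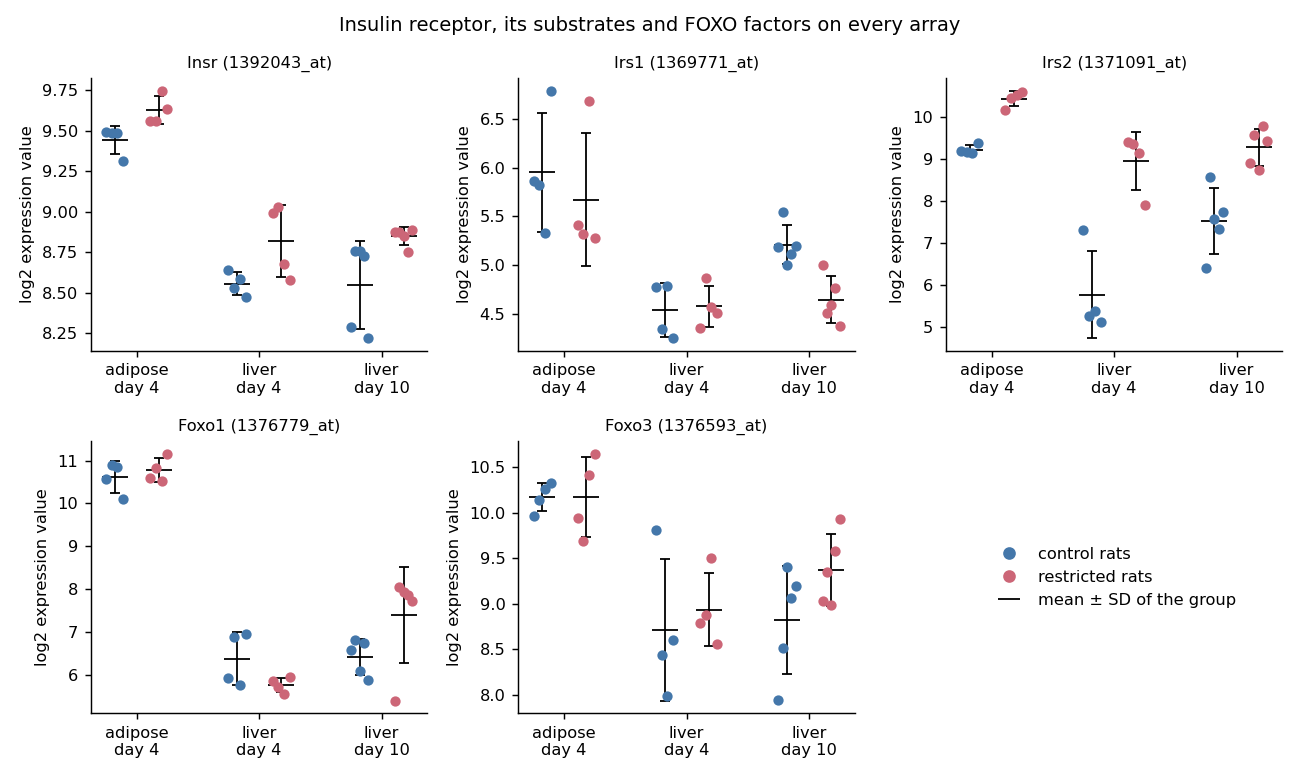
Log2 expression value (vertical axis) of the probe set with the highest mean for each of the 5 genes, on every array. Points are arrays, bars are the group mean and SD (4 arrays a group at day 4, 5 at day 10). Irs2 separates control from restricted rats in all 3 sets, Irs1 does so in liver at day 10 only, and 1 restricted rat at day 10 has a Foxo1 value of 5.40 while the other 4 lie at 7.72 to 8.06.

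Insr encodes the receptor itself. Its brighter probe set, 1392043_at, read 9.50, 9.49, 9.49 and 9.32 in adipose tissue of the controls and 9.56, 9.56, 9.75 and 9.64 after restriction. All 4 restricted arrays lay above all 4 controls, by a small margin, and the change of 0.18 (SE 0.06, 95% interval 0.04 to 0.32) was not called (limma, adjusted p = 0.464). Day 4 liver of the controls read 8.64, 8.53, 8.59 and 8.47 and the restricted rats 8.99, 9.03, 8.68 and 8.58. The groups overlapped, with restricted 1 and 2 standing above every control, and the change of 0.26 (SE 0.11, 95% interval 0.01 to 0.52) was not called (adjusted p = 0.296). At day 10 the controls read 8.29, 8.76, 8.76, 8.73 and 8.22 and the restricted rats 8.87, 8.88, 8.85, 8.75 and 8.89. Control 1 and control 5 were the low ones, and restricted 4 fell among the upper controls. The change was 0.30 (SE 0.12, 95% interval 0.03 to 0.56, adjusted p = 0.177), and it was 0.27 on the first scan day and 0.36 on the second. The dimmer probe set, 1369051_at, was also higher on average in all 3 sets, by 0.18 (SE 0.08) in adipose tissue, 0.29 (SE 0.17) in liver at day 4 and 0.10 (SE 0.07) at day 10, and was called in none (adjusted p = 0.700, 0.591 and 0.611). Its groups did not overlap in adipose tissue and in liver at day 4. In adipose tissue 6 of its 8 values lay at or below the array median, close to background.

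Promoter sequences were taken from RefSeq (rat build GRCr8, windows of 300 bases that run from upstream of the gene start to just past it), which held 3 of the 5 genes: Insr, Irs1 and Foxo1. They were searched on both strands for TGTTTAC, the core that forkhead factors bind. They were also searched on both strands for CAAAACA, the core of the insulin response sequence to which FOXO factors bind. The Insr promoter, shown because it was the only one of the 3 with a match, lies on the minus strand at chr12:6128754-6129053 and holds the forkhead core, in capitals, at bases -100 to -94 from the start. The promoter of Igfbp1, a textbook FOXO target whose values follow below, lies on the plus strand at chr14:86261027-86261326 and holds the insulin response core, in capitals, at bases -121 to -115.
Insr: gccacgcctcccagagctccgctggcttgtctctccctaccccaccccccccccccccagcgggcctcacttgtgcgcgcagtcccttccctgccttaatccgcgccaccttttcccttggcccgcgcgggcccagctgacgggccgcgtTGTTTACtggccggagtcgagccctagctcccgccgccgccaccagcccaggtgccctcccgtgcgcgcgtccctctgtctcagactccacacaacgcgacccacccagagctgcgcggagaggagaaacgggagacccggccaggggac
Igfbp1: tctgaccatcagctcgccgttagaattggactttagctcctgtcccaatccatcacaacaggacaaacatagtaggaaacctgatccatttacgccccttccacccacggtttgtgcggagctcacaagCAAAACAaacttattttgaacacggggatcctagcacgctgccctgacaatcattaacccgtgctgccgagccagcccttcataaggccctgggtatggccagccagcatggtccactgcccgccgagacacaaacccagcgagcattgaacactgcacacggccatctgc
The forkhead core was present in 1265 of 33469 promoters of this length (3.78%) and the insulin response core in 2103 (6.28%), so a match in 1 window is a description of its letters. No matches overlapped in these windows. Among the listed FOXO targets 23 of 29 had a promoter in the table, of which 2 held the forkhead core and 3 the insulin response core.

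Irs1 encodes a substrate that docks phosphoinositide 3-kinase to the receptor in adipose tissue, muscle and liver. Its probe set, 1369771_at, read 5.19, 5.54, 5.01, 5.11 and 5.19 in liver of the day 10 controls and 4.998, 4.51, 4.59, 4.76 and 4.37 after restriction. The groups did not overlap, but the lowest control and the highest restricted rat were almost level. Irs1 fell by 0.56 (SE 0.13, 95% interval -0.86 to -0.26), from 5.21 ± 0.20 to 4.65 ± 0.24 (SD, n = 5 and 5), which is 1.48-fold lower (adjusted p = 0.0244). The change was -0.49 on the first scan day and -0.58 on the second, and -0.54 with scan day as a term (adjusted p = 0.0425). With 1 array left out the call was lost without control 1 (adjusted p = 0.0511), control 5 (0.0551) or restricted 2 (0.0588), 3 (0.0611) or 5 (0.0525), while the change stayed between -0.65 and -0.48.

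Irs1 did not separate the groups at day 4. The liver controls read 4.78, 4.35, 4.79 and 4.25 and the restricted rats 4.36, 4.87, 4.57 and 4.51, a change of 0.04 (SE 0.16, 95% interval -0.34 to 0.41, adjusted p = 0.969). The adipose controls read 5.86, 5.83, 5.33 and 6.79 and the restricted rats 5.41, 5.31, 6.69 and 5.28, a change of -0.28 (SE 0.42, 95% interval -1.26 to 0.71, adjusted p = 0.708). In adipose tissue control 4 and restricted 3 stood far above the rest of their groups, which overlapped. Over the 6 groups the means ran from 4.54 (liver day 4 controls), 4.58, 4.65 and 5.21 (liver day 10 controls) to 5.67 and 5.95 in adipose tissue, and of the neighbours in this order only the day 10 restricted and control livers did not overlap.

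Irs2 encodes the substrate that carries much of insulin's signal in liver and whose transcript is known to rise in fasting liver. Its probe set, 1371091_at, read 7.32, 5.27, 5.37 and 5.11 in liver of the day 4 controls and 9.40, 9.36, 9.13 and 7.92 after restriction. Every restricted rat stood above every control, control 1 stood well above the other 3 controls, and restricted 4 was the lowest of its group. The means were 5.77 ± 1.04 and 8.95 ± 0.70 (SD, n = 4 and 4), a rise of 3.18 (SE 0.57, 95% interval 1.85 to 4.51) or 9.08-fold (adjusted p = 0.0204). Among all probe sets Irs2 ranked 15 by size of rise and 1083 by p. With 1 array left out the rise stayed between 2.96 and 3.70. The call was lost without control 2 (adjusted p = 0.0571), control 3 (0.0678), control 4 (0.0606), restricted 1 (0.0712), restricted 2 (0.0568) or restricted 3 (0.0620).

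At day 10 the Irs2 probe set read 6.41, 8.57, 7.58, 7.33 and 7.74 in liver of the controls and 8.90, 9.57, 8.75, 9.78 and 9.42 after restriction. The groups again did not overlap, although control 2 came close to the lowest restricted rat. Irs2 rose by 1.76 (SE 0.38, 95% interval 0.91 to 2.61), from 7.53 ± 0.78 to 9.28 ± 0.44 (SD, n = 5 and 5), or 3.39-fold (adjusted p = 0.0155). Among all probe sets it ranked 122 by size of rise and 2305 by p. The rise was 1.71 on the first scan day (adjusted p = 0.518) and 1.78 on the second (adjusted p = 0.0904), and 1.75 with scan day as a term (adjusted p = 0.0306). It was called with any 1 of the 10 arrays left out, at 1.48 to 2.02.

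In adipose tissue the controls read 9.20, 9.16, 9.13 and 9.37 and the restricted rats 10.17, 10.46, 10.54 and 10.59 for Irs2. The groups lay far apart, with little spread inside either. Irs2 rose by 1.22 (SE 0.10, 95% interval 0.99 to 1.46), from 9.22 ± 0.11 to 10.44 ± 0.19 (SD, n = 4 and 4), or 2.33-fold (adjusted p = 0.0258). Of the 17 probe sets called in adipose tissue (5 higher, 12 lower), Irs2 had the fourth smallest p, and it ranked 26 by size of rise among all probe sets. With each array centred on its median the rise was 1.19 and was not called (adjusted p = 0.0674). With 1 array left out it stayed between 1.17 and 1.31, and the call was lost without control 1 (adjusted p = 0.132), control 2 (0.0927), control 3 (0.0558), restricted 2 (0.130), restricted 3 (0.0834) or restricted 4 (0.0944).

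Placed in order, the Irs2 group means were 5.77 in liver day 4 controls, 7.53 in liver day 10 controls, 8.95 in restricted livers at day 4, 9.22 in adipose controls, 9.28 in restricted livers at day 10 and 10.44 in restricted adipose tissue. Each group overlapped the next in this order except restricted adipose tissue, which stood above all others. The rise at day 10 minus the rise at day 4 in liver was -1.42 (SE 0.69, 95% interval -2.88 to 0.04, adjusted p = 0.621), not called, and 0.654% of probe sets were called in that comparison. The rise in adipose tissue minus that in liver at day 4 was -1.96 (SE 0.61, 95% interval -3.26 to -0.65, adjusted p = 0.115), not called, where 3.41% of probe sets were called. The liver sets differ in length of regimen, in amount and form of feed and in normalization, and these cannot be told apart. Both differences share the day 4 liver arrays. The second passed without liver day 4 control 1 (-2.47, adjusted p = 0.0036), without liver day 4 restricted 4 (-2.30, adjusted p = 0.0403), and when probe sets with a mean below 5 in both sets were left out (adjusted p = 0.0473).

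**Figure D2:**
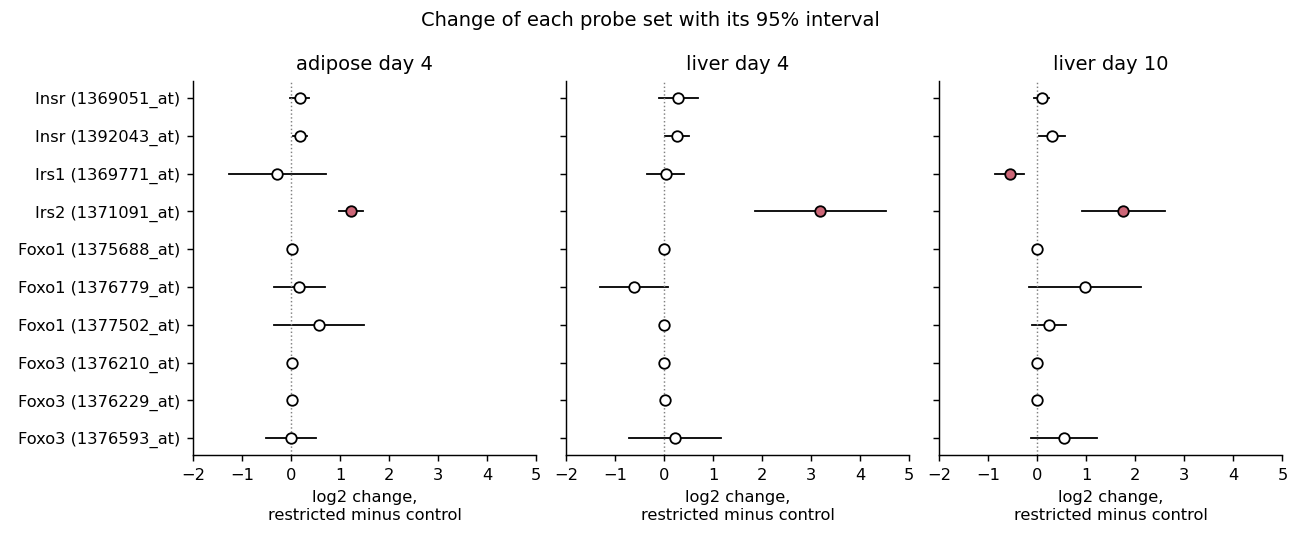
Log2 change, restricted minus control (horizontal axis), of all 10 probe sets with 95% intervals, in each set. Filled points are called at an adjusted p below 0.05. Irs2 stands at 1.22, 3.18 and 1.76, and Irs1 at day 10 at -0.56. The other points are open.

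Foxo1 encodes the FOXO factor known to drive glucose output in liver and to hold back adipocyte differentiation. Its main probe set, 1376779_at, read 6.59, 6.83, 6.10, 6.76 and 5.87 in liver of the day 10 controls and 5.40, 8.06, 7.93, 7.87 and 7.72 after restriction. Restricted 2 to 5 lay above every control, while restricted 1 lay below every control. The change was 0.97 (SE 0.51, 95% interval -0.17 to 2.11), from 6.43 ± 0.42 to 7.40 ± 1.13 (SD, n = 5 and 5), and was not called (adjusted p = 0.370). Without restricted 1 it was 1.47 and was called (adjusted p = 0.0028). On the first scan day, that of restricted 1 and 2, the change was 0.22, and on the second it was 1.53 (adjusted p = 0.0804). Over all probe sets restricted 1 correlated with the rest of its group at a mean of 0.996, against 0.995 to 0.997 for the other 4 arrays.

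At day 4 Foxo1 in liver read 5.94, 6.88, 5.77 and 6.96 in the controls and 5.85, 5.73, 5.55 and 5.95 after restriction. Control 2 and control 4 were the high ones, and the other 2 controls lay among the restricted rats. The change of -0.62 (SE 0.29, 95% interval -1.30 to 0.07) was not called (adjusted p = 0.413). The change at day 10 minus that at day 4 was 1.58 (SE 0.65, 95% interval 0.21 to 2.96, adjusted p = 0.461), and without day 10 restricted 1 it was 2.08 (adjusted p = 0.0161).

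In adipose tissue the same Foxo1 probe set read 10.57, 10.90, 10.86 and 10.09 in the controls and 10.58, 10.83, 10.53 and 11.16 after restriction. The groups overlapped, with a change of 0.17 (SE 0.22, 95% interval -0.34 to 0.68, adjusted p = 0.706), and every adipose array stood above every liver array (5.40 to 8.06). A second Foxo1 probe set, 1377502_at, differed by 0.57 (SE 0.39) in adipose tissue, by -0.01 (SE 0.01) in liver at day 4 and by 0.25 (SE 0.15) in liver at day 10, and was not called (adjusted p = 0.706, 0.959 and 0.502). All 8 of its values in liver at day 4 lay at or below the array median. The third, 1375688_at, lay at or below the array median on all 26 arrays and carries no information on Foxo1 at these levels.

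Foxo3 encodes the FOXO factor best known for genes of stress resistance, autophagy and cell death. Its main probe set, 1376593_at, read 9.81, 8.44, 7.99 and 8.60 in liver of the day 4 controls and 8.79, 8.88, 9.50 and 8.56 after restriction. The groups overlapped, the highest array being control 1, and the change was 0.22 (SE 0.40, 95% interval -0.71 to 1.16, adjusted p = 0.959). At day 10 the controls read 7.95, 8.51, 9.41, 9.06 and 9.19 and the restricted rats 9.03, 9.35, 8.98, 9.58 and 9.93. The groups overlapped over their middle values, and the change of 0.55 (SE 0.30, 95% interval -0.13 to 1.23, adjusted p = 0.402) was 0.57 on the first scan day and 0.37 on the second. The adipose controls read 9.97, 10.14, 10.26 and 10.32 and the restricted rats 9.94, 9.69, 10.41 and 10.65. The restricted rats lay on both sides of the controls, and the change was 0.00 (SE 0.21, 95% interval -0.50 to 0.50, adjusted p = 0.999). The other Foxo3 probe sets, 1376210_at and 1376229_at, differed by no more than 0.03 in any set, within ranges over a set of at most 0.11. The first lay at 3.37 to 3.57 in liver, just above the array medians, and all other values of these probe sets lay at or below the array median.

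**Figure D3:**
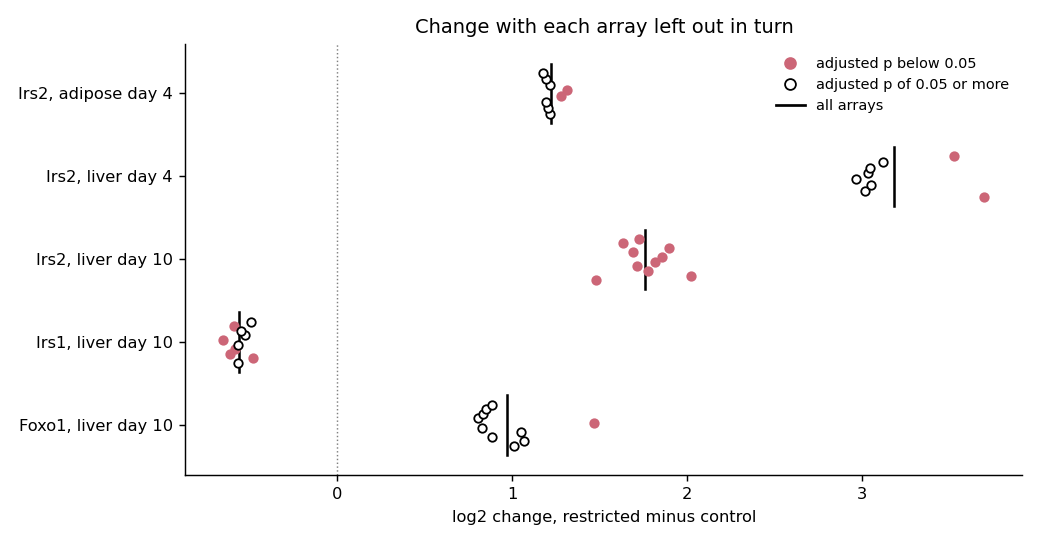
Log2 change (horizontal axis) with each array left out in turn, for the called members and for Foxo1 at day 10. Filled points have an adjusted p below 0.05, open points do not, and the vertical lines give the change over all arrays. Irs2 at day 10 was called each time, and Foxo1 was called once, at 1.47 without restricted 1.

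The next question was what the genes around these 5 did, by lists drawn up with earlier results of these data known. Of 27 measured FOXO targets outside the members, 10 rose and 0 fell in liver at day 10 (median change 0.25), against 8.67% of all genes rising and a median of 0.00 over all genes. At day 4 in liver 4 rose and 0 fell (median 0.13), against 4.53% of genes rising and a median of 0.01. Called or not, the changes of the 27 ran both ways, from -1.36 to 3.78 at day 10 and from -2.04 to 2.87 at day 4. In adipose tissue 0 of 27 were called at an adjusted p below 0.05 (median 0.02), where 0.106% of genes were called. With scan day as a term 9 rose at day 10, and with 1 array left out 7 to 10 rose. At day 4 the number of rises stayed at 4 only without restricted 4, where 1 gene also fell. It was 2 without control 2, 3 or 4 or restricted 1 or 3, and lay between 2 and 4 without control 1 or restricted 2. At day 10 1 gene fell without control 1, control 4 or restricted 1.

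Igfbp1, which encodes a binding protein that ties up insulin-like growth factors, read 5.62, 7.62, 7.37 and 6.21 in liver of the day 4 controls and 9.19, 9.75, 9.17 and 10.21 after restriction. At day 10 it read 8.90, 9.91, 8.15, 8.72 and 7.52 in the controls and 12.04, 11.73, 12.24, 12.73 and 13.19 in the restricted rats. The groups did not overlap at either time, and Igfbp1 rose by 2.87 (SE 0.49, adjusted p = 0.0169) and by 3.75 (SE 0.45, adjusted p = 0.000761). In adipose tissue all 8 values were near 2.2, at background. Ppargc1a, the coactivator PGC-1alpha, read 3.49, 3.78, 3.50, 3.33 and 3.24 in the day 10 controls, close to the array median, and 5.94, 6.39, 6.82, 7.97 and 9.10 after restriction. Every restricted rat stood above every control, and Ppargc1a rose by 3.78 (SE 0.55, adjusted p = 0.0021), against 0.85 (SE 0.17, adjusted p = 0.0351) at day 4. Bcl2l11, which encodes the death-promoting protein BIM, rose at day 10 by 3.36 (SE 0.54, adjusted p = 0.0038), from 4.27, 5.38, 4.03, 4.63 and 3.28 to 6.10, 7.37, 7.81, 8.23 and 8.87. Restricted 1 was the lowest restricted array for Ppargc1a, Bcl2l11 and Pnpla2, and restricted 2 was the lowest for Igfbp1. Restricted 1 stood above every control for all 4 genes. It also had the highest restricted values of the insulin-induced genes Fasn (9.70) and Angptl8 (7.82), while restricted 3 had that of Elovl6 (5.44) and restricted 2 that of Me1 (7.81). A link of these values to the low Foxo1 value of restricted 1 was not tested. Pnpla2, the first lipase of triglyceride breakdown, rose by 1.71 (SE 0.35) at day 10. Bnip3, a receptor for the removal of mitochondria, rose by 1.36 (SE 0.16) at day 4, and Cdkn1b, the cell cycle inhibitor p27, by 0.50 (SE 0.09). Within the first and the second scan day, Igfbp1 was higher by 2.90 and 4.60, Ppargc1a by 2.58 and 4.68, Bcl2l11 by 2.17 and 4.35 and Pnpla2 by 1.22 and 2.01. In adipose tissue Pdk4, which encodes an inhibitor of pyruvate oxidation, differed by 1.61 (SE 0.32, adjusted p = 0.206) and Apoc3, an apolipoprotein of triglyceride-rich particles, by -1.99 (SE 0.40, adjusted p = 0.212), with no overlap of groups for either. Apoc3 read 6.00 to 7.84 in control adipose tissue and 14.83 to 14.91 in day 4 control liver. The hepatocyte markers Ttr and Cps1, given below, were also lower in restricted adipose tissue, and a link to Apoc3 was not tested.

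**Figure D4:**
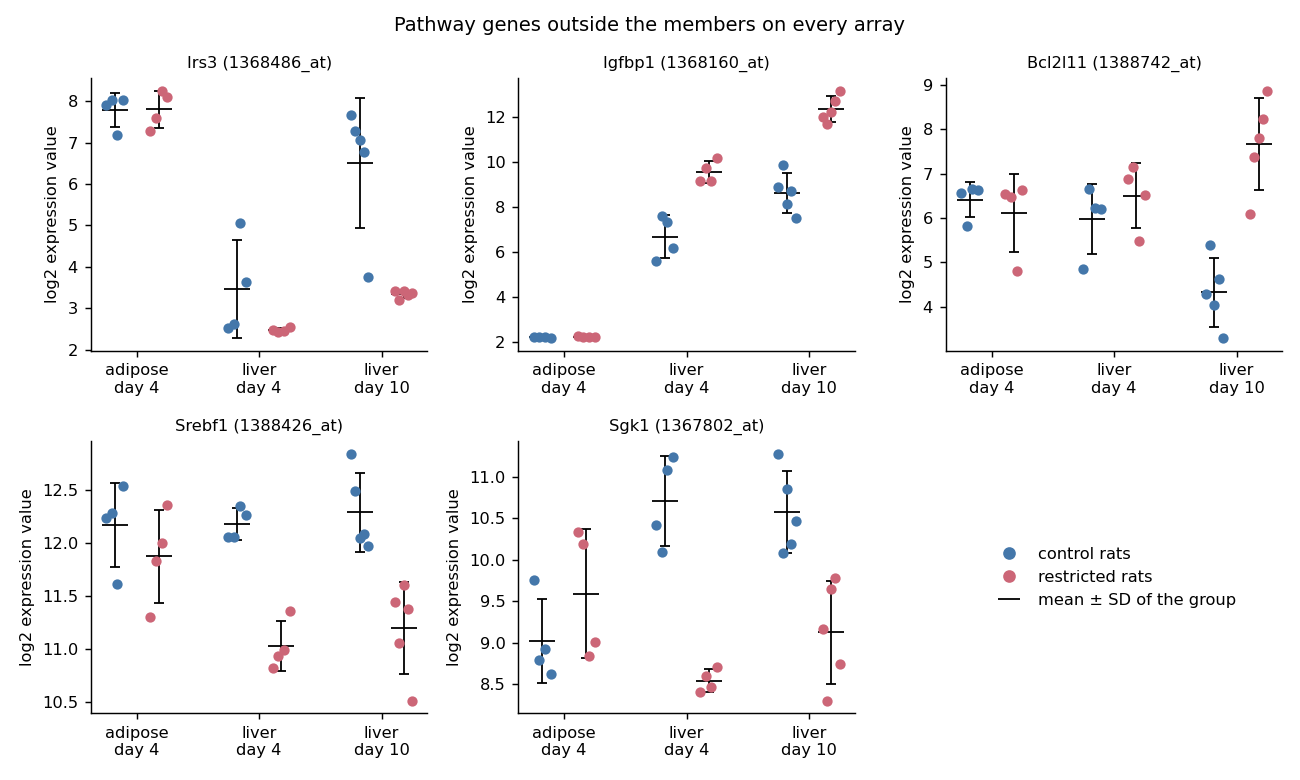
Log2 expression value (vertical axis) of 5 pathway genes outside the members on every array, with the group mean and SD. Igfbp1 and Bcl2l11 are higher, and Irs3 is lower, in restricted livers at day 10. Srebf1 and Sgk1 are lower in restricted livers at both times.

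Proteins that modify or bind FOXO factors moved in both directions. Of 15 measured, 1 rose and 3 fell in liver at day 4, and 4 rose and 3 fell at day 10, against 8.5% and 16.8% of all genes called, while 0 were called in adipose tissue (1 fell without control 4). Sgk1, a kinase known to phosphorylate FOXO3, read 10.42, 10.10, 11.08 and 11.24 in liver of the day 4 controls and 8.40, 8.60, 8.47 and 8.71 after restriction. The restricted rats lay close together, far below the controls, a fall of 2.17 (SE 0.25, adjusted p = 0.0040), and at day 10 Sgk1 fell by 1.45 (SE 0.33, adjusted p = 0.0216; -2.002 and -0.94 on the 2 scan days). Sgk2, a related kinase, fell by 2.48 (SE 0.46, adjusted p = 0.0077) at day 10 (-1.53 and -3.09). Sirt2, a deacetylase of FOXO factors, rose by 0.38 (SE 0.05) and 0.40 (SE 0.05), and the acetyltransferase Ep300 rose by 0.44 (SE 0.07) at day 10. The phosphatase scaffold Ppp2r1a and the 14-3-3 protein Ywhaz, which holds phosphorylated FOXO in the cytosol, fell at day 4 by 0.34 (SE 0.07) and 0.33 (SE 0.06). In adipose tissue the 14-3-3 gene Ywhag differed by -0.55 (SE 0.07, adjusted p = 0.0954) and Sgk1 by 0.57 (SE 0.42, adjusted p = 0.706). With any 1 array left out the lower count at day 4 was 1 or 2, in place of 3. It was 1 without control 3, control 4 or restricted 1, and the higher count was 2 without control 2 or restricted 4.

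Of 10 measured factors that act on Irs2 transcription, 1 fell at day 4 and 2 at day 10 in liver, and 0 rose. These shares of 10% and 20% stand beside 8.5% and 16.8% of all genes called, or 3.97% and 8.15% falling. Srebf1, which encodes SREBP-1, read 12.05, 12.05, 12.35 and 12.26 in liver of the day 4 controls and 10.82, 10.93, 10.99 and 11.36 after restriction. No arrays overlapped, and Srebf1 fell by 1.15 (SE 0.13, adjusted p = 0.0032) at day 4 and by 1.09 (SE 0.24, adjusted p = 0.0180) at day 10. Nr3c1, the glucocorticoid receptor, fell by 0.44 (SE 0.10, adjusted p = 0.0171) at day 10. In adipose tissue Srebf1 differed by -0.29 (SE 0.27, adjusted p = 0.706). At day 4 the count was 2 without control 1, and at day 10 1 rose without restricted 2.

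Genes that insulin induces fell in liver. Of 14 measured, 11 fell at day 4 (median -3.28) and 10 at day 10 (median -1.58), against 3.97% and 8.15% of all genes falling, and 0 rose. Scd, the stearoyl-CoA desaturase, fell by 6.79 (SE 0.30, adjusted p = 0.000211) and 7.35 (SE 0.64, adjusted p = 0.000182). Elovl6, a fatty acid elongase, fell by 4.34 (SE 0.46) and 2.87 (SE 0.59). Pnpla3 and Me1 fell by 5.44 and 4.21 at day 4, and Fasn and Angptl8 by 2.77 and 2.65 at day 10. In adipose tissue 0 were called (median -0.49). There Slc2a4, the insulin-regulated glucose transporter GLUT4, read 9.85, 9.55, 9.95 and 10.65 in the controls and 7.65, 7.79, 6.61 and 7.68 after restriction, and Fasn read 13.71, 13.33, 13.32 and 14.02 and 10.52, 11.35, 10.83 and 12.04. Neither gene's groups overlapped, but the changes of -2.57 (SE 0.33, adjusted p = 0.0956) and -2.41 (SE 0.34, adjusted p = 0.115) were not called.

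**Figure D5:**
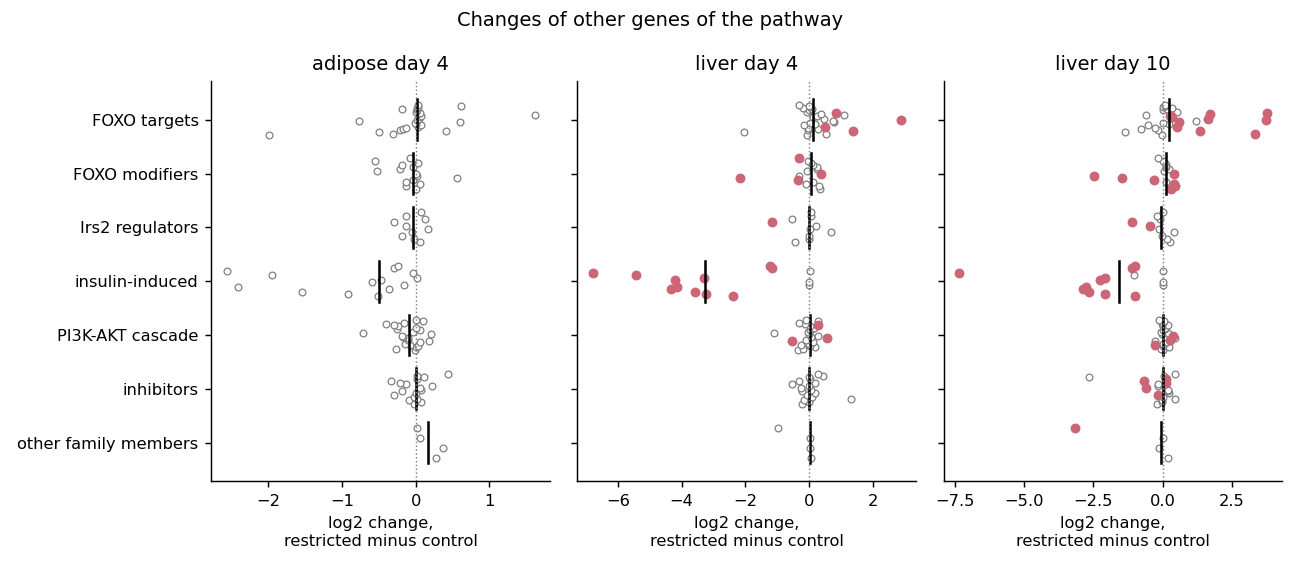
Log2 change, restricted minus control (horizontal axis; ranges differ between panels), of the measured genes of each list. Filled points are called at an adjusted p below 0.05, open points are not, and vertical bars are medians of the list. In liver 4 of 27 FOXO targets are called higher at day 4 and 10 at day 10, and 11 and 10 of 14 insulin-induced genes are called lower. No gene of these lists is called in adipose tissue.

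Of 24 measured genes of the kinase cascade between the receptor and FOXO, 2 rose and 1 fell in liver at each time. That is 12.5% of the list, against 8.5% of all genes called at day 4 and 16.8% at day 10. In adipose tissue 0 were called, against 0.106% of all genes, and 3 had an unadjusted p below 0.05. At day 4 Pde3b, the phosphodiesterase by which insulin lowers cyclic AMP, rose by 0.57 (SE 0.09), the mTORC1 subunit Rptor rose by 0.29 (SE 0.06), and Mlst8, a subunit of both mTOR complexes, fell by 0.55 (SE 0.11). At day 10 Pik3ca, a catalytic subunit of phosphoinositide 3-kinase, rose by 0.37 (SE 0.09), Mtor rose by 0.25 (SE 0.05) and the adaptor Grb2 fell by 0.28 (SE 0.03). With scan day as a term 1 rose at day 10, and Pik3ca had an adjusted p of 0.0623. With 1 array left out the number of rises was 1 or 2 at each time: it was 1 at day 4 without control 2 or 4 or restricted 1, 2, 3 or 4, and 1 at day 10 without control 1, 4 or 5 or restricted 3, 4 or 5. The fall at day 4 was not called without control 2 or 4 or restricted 2 or 3. The adipose values of the regulatory subunit Pik3r1 differed by -0.72 (SE 0.36, adjusted p = 0.706) and those of the adaptor Shc1 by -0.40 (SE 0.07, adjusted p = 0.185).

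Of 18 measured inhibitors of insulin receptor signalling, 0 were called at day 4 in either tissue, and 2 rose and 3 fell in liver at day 10. That is 27.8% of the list at day 10, against 16.8% of all genes called (8.67% rising and 8.15% falling). The receptor phosphatase Ptprf fell by 0.67 (SE 0.15), the kinase Prkcd by 0.61 (SE 0.11) and the lipid phosphatase Inppl1 by 0.17 (SE 0.05, adjusted p = 0.0499), while the phosphatase Ptpn11 rose by 0.13 (SE 0.03). Over all 18 the day 10 changes ran from -2.67 to 0.46, and neither end was called. Inppl1 lay at 3.60 to 3.98, not far above the array medians of 3.23 to 3.32. With scan day as a term Inppl1 had an adjusted p of 0.0750. The adaptor Grb7, at day 4 in liver, differed by 1.31 (SE 0.38, adjusted p = 0.112) and Ptpn1, which dephosphorylates the receptor, by -0.53 (SE 0.21, adjusted p = 0.285). Without control 1 or restricted 4 the day 4 count of rises was 1, and without control 1 the count of falls was 1. In adipose tissue the AKT inhibitor Trib3 differed by 0.44 (SE 0.32) and Ptprf by -0.34 (SE 0.24).

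Of 4 other measured members of these families, Irs3, a substrate that rodents have in adipose tissue, was the only one called. It read 7.67, 7.29, 7.07, 6.78 and 3.74 in liver of the day 10 controls and 3.42, 3.19, 3.41, 3.31 and 3.36 after restriction. Control 5 stood near the restricted rats, whose values were at the array medians, so the fall of 3.17 (SE 0.67, adjusted p = 0.0141) is bounded by background. It was -4.04 and -1.90 on the 2 scan days, control 5 being on the second. At day 4 only control 3 (5.07) and control 4 (3.63) stood clear of background, and the change of -0.98 (SE 0.54) was not called (adjusted p = 0.531). In adipose tissue Irs3 read 7.19 to 8.02 in the controls and 7.28 to 8.25 after restriction. Igf1r, the receptor for insulin-like growth factor, and Foxo4 differed in adipose tissue by 0.38 (SE 0.18) and 0.27 (SE 0.11) and were not called (adjusted p = 0.706 and 0.607).

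Markers of some other cells were called in liver, where 8.5% of all genes were called at day 4 and 16.8% at day 10. Of 9 macrophage marker genes 5 fell at day 4 and 8 at day 10, and their summed log2 level was 12.7 to 12.9 in controls and 11.8 to 12.2 in restricted rats at day 4, and 13.2 to 13.6 and 12.1 to 12.6 at day 10. Of 3 red cell markers 0 were called at day 4 and 2 fell at day 10 (summed level 12.6 to 13.9 against 10.1 to 11.9). Of 7 fibroblast and stellate cell markers 1 fell at day 4 (10.7 to 11.0 against 9.06 to 10.2), and 2 fell and 1 rose at day 10 (10.3 to 11.4 against 9.44 to 10.6). Of 8 hepatocyte markers 1 fell at day 4, and 2 rose and 1 fell at day 10. Of 7 adipocyte markers 5 were near background in liver at day 4 and 4 at day 10, Adipoq and Plin1 among them. Of 6 markers of skin and gland epithelium 0 were called at day 4 and 2 rose at day 10 (13.1 to 13.3 against 13.2 to 13.7). Of the endothelial, lymphocyte, muscle and adipocyte markers 0 were called in liver at either time. The part of these cells in the liver results was not tested. In adipose tissue none of the marker genes was called. The summed adipocyte markers were 17.4 to 17.6 in controls and 17.3 to 17.5 in restricted rats, all 7 muscle markers were near background, and of 8 hepatocyte markers 5 were near background. Of the rest, Alb read 14.19 ± 0.32 and 13.60 ± 0.47, Ttr 5.42 to 8.03 and 3.57 to 4.51, and Cps1 5.28 to 8.50 and 2.59 to 3.76 in control and restricted adipose tissue, and their part in the adipose results was not tested.

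Apart from Irs2 and Insr, the members did not follow one another closely. Over the 26 arrays, each set centred on its mean, Irs2 correlated with the main Insr probe set at 0.72, with that of Foxo3 at 0.52, with that of Foxo1 at 0.02 and with Irs1 at -0.14, and the 2 Insr probe sets correlated with each other at 0.67. Irs1 correlated with the main Foxo1 probe set at -0.55. Among 7650 genes searched, those most like Irs2 were Mettl7a (r = 0.91), Kmo, which acts in tryptophan breakdown (0.89), and Sat2 (0.89). Mettl7a differed by 0.39, 1.44 and 1.02 between restricted and control rats in adipose tissue, liver at day 4 and liver at day 10. The genes most like Insr were Erbb3, a receptor tyrosine kinase (0.82), the lipid droplet gene Hilpda (0.81) and Ier3 (0.80). Those most like Irs1 were Immp1l (0.80), the ubiquitin ligase Syvn1 (0.78) and Frrs1 (0.77). Those most like Foxo1 were C11h21orf91 (0.82), B4galnt1 (0.75) and Irf2bp2 (0.73), and those most like Foxo3 were Rbm15 (0.72), the glucocorticoid-responsive factor Klf9 (0.70) and Hhex (0.70). These correlations hold the diet difference and are descriptions over arrays that share platform and set.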

How the data were processed

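Total RNA of 26 tissue samples, 1 rat each per the series design, was hybridized to 26 arrays. The deposited values are log2 expression values made by the authors. Per the submitters' processing notes, R 2.4.1, affy 1.12.2, RMA and GCRMA 2.6.0 were used. Whether RMA or GCRMA produced them is not given in the sources used here. The 3 sets were pre-processed apart, per the series design.

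The table held 31099 probe sets, and its 57 controls were dropped. Through the platform annotation 20826 of the rest had 1 gene symbol, 436 several and 9780 none. A gene ID of the current table matched 20758. Among several probe sets of a gene the main one has the highest mean over all arrays. One limma model per set (version 3.58.1, R 4.3.3; lmFit and eBayes) compared restricted with control rats by a two-sided test. Its p-values were adjusted by Benjamini-Hochberg across every tested probe set, and 0.05 was the threshold. Effects in 2 sets were compared by a contrast in a joint model. Near background means a value, or for a marker a mean, at or below the median of the arrays. The summed marker level is the log2 of the summed linear values. The fit was tested on simulated data. The number of arrays, 4 or 5 a group, limits the precision.

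All member probe sets are reported. Of each other list, up to 4 called members with the largest change are named per set, or up to 2 where none was called. For each member the 3 genes most like it are named. Marker values were named after they were seen. Members and lists were chosen with earlier results of these data known. Alternatives were median centring, a minimum mean of 5, a variance trend, the replicate number as a block, scan day, leaving out each array, and every probe set of a list gene. Figures and sequences used Python 3.11.15, pandas 2.3.3, numpy 2.4.6 and matplotlib 3.10.9.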

Additional observations from a re-analysis of the deposited data

Results flagged for a closer look

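In 8 of the 60 groups of 4 or 5 arrays tested for an array standing apart (Dixon's test at 95%, which flags about 1 group in 20 by chance), 1 array lay far from the rest. In liver at day 4, control 1 had an Irs2 value of 7.32, while the other controls lay at 5.11 to 5.37. In liver at day 10, restricted 1 had a Foxo1 value (1376779_at) of 5.40, against 7.72 to 8.06, and restricted 4 had an Insr value (1392043_at) of 8.75, against 8.85 to 8.89. In adipose tissue, restricted 3 had an Irs1 value of 6.69, against 5.28 to 5.41. Adipose control 4 stood apart 3 times, at 9.32 for Insr (1392043_at; others at or above 9.49), at 1.59 for the background-level Foxo1 probe set 1375688_at (1.62 to 1.63) and at 2.33 for the background-level Foxo3 probe set 1376229_at (all others at or above 2.39). In liver at day 4, control 3 had a value of 4.81 for the dimmer Insr probe set 1369051_at, against 4.93 to 4.95.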

How the results depend on the processing

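Apart from leaving out single arrays, 207 alternatives were run over 50 results on the 10 probe sets. In 186 of them direction and side of the threshold were kept. Most of the 50 results were uncalled to begin with, and for those keeping the side of the threshold says little. A call was lost in 7 alternatives, all of them for Irs2 or Irs1. In 1 a call was gained, and in 13 the sign of an uncalled value changed. With each array centred on its median, adipose tissue had 3 calls in place of 17 (0% higher in place of 29.4%) and Irs2 there was 1.19 (adjusted p = 0.0674). A minimum mean of 5, which leaves out Irs1 in liver at both times and in the difference between them, so that its call at day 10 was not tested in this way, gave 29 calls in adipose tissue, 404 for the difference between liver times (203 without it), and -1.96 (adjusted p = 0.0473) for Irs2 in adipose tissue minus liver. Deviations from the group mean correlated between same-numbered rats at -0.38 to 0.26 in adipose tissue. In liver they did so at -0.09 to 0.17 at day 4 and -0.08 to 0.10 at day 10. Only the adipose arrays numbered 4 (0.26) were each other's best match. The labels name no pairs, and the numbers were not read as pairs. With the replicate number as a block there were 0 calls in adipose tissue, 987 in liver at day 4 (1732 without) and 34 for the difference between liver times, and Irs2 in adipose tissue (1.22, adjusted p = 0.179) and Irs1 at day 10 (-0.56, adjusted p = 0.0750) were not called. At day 10 scan day 1 alone gave 567 calls and scan day 2 alone 1240, where all arrays gave 3471. Irs1 was then -0.49 and -0.58 and Irs2 1.71 and 1.78, none called. These fits use fewer arrays. Scan day was not run for adipose tissue, which had 1 scan day.

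Signs reversed only for uncalled values. With centring, Foxo1 1375688_at was -0.013 in adipose tissue and -0.0027 in adipose tissue minus liver, Foxo3 1376210_at was -0.014, -0.0064 and -2.6e-05 in adipose tissue and in liver at day 4 and day 10, and -0.0075 (adipose tissue minus liver) and 0.0064 (day 10 minus day 4) for the differences, and Foxo3 1376229_at was -0.0033, -0.0036 and 5.1e-05 in adipose tissue and for those differences. On scan day 1, Foxo1 1375688_at was -0.0038, Foxo3 1376210_at -0.0084 and Foxo3 1376229_at -0.0049.

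With 1 array left out, calls numbered 0 to 15 in adipose tissue, 1091 to 1744 in liver at day 4, 2841 to 3442 at day 10, 104 to 313 for day 10 minus day 4 and 761 to 1205 for adipose tissue minus liver. Irs2 ran from 1.17 to 1.31, 2.96 to 3.70 and 1.48 to 2.02 in the 3 sets, and from -1.94 to -1.16 (day 10 minus day 4) and -2.47 to -1.74 (adipose tissue minus liver). Irs1 ran from -0.62 to -0.00, -0.061 to 0.12 and -0.65 to -0.48, Foxo1 (1376779_at) at day 10 from 0.80 to 1.47 and in the difference between liver times from 1.39 to 2.08. Foxo3 (1376593_at) ran from -0.16 to 0.16 in adipose tissue, -0.016 to 0.59 in liver at day 4, -0.041 to 0.57 for day 10 minus day 4 and -0.59 to 0.016 for adipose tissue minus liver. The Insr differences ran from -0.048 to 0.10 (1392043_at, day 10 minus day 4) and -0.19 to 0.068 (1369051_at, adipose tissue minus liver). Of the dim probe sets, Foxo1 1375688_at ran from -0.0054 to 0.0079 in liver at day 4, -0.0016 to 0.012 at day 10 and -0.0020 to 0.012 between them, and Foxo1 1377502_at from -0.012 to 3.7e-05 in liver at day 4. Foxo3 1376210_at ran from -0.0043 to 0.016, -0.0052 to 0.0054 and -0.015 to 0.0059 likewise and -0.0016 to 0.021 for adipose tissue minus liver, and Foxo3 1376229_at from -0.0039 to 0.0063 at day 10 and -0.0015 to 0.027 for that difference.

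Counting every probe set of a gene moved 4 of 42 list counts: 2 for Irs2 regulators and 19 for insulin-induced genes falling at day 4, and 3 for the cascade and 1 for FOXO targets falling at day 10. The cause of these changes was not tested.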
